A study of Mus musculus with 19 samples.

Results

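The liver makes most of the proteins of blood coagulation and complement, and 36 of their genes were examined here for binding of YAP and TEAD in mouse liver. The genes were chosen by name, as members of these systems, at a time when earlier results of these data were known. They are 36 of 22367 protein-coding genes of the GENCODE annotation for the mm9 mouse assembly (NCBIM37). A gene was counted as having a peak if a peak touched its gene body or the 10 kb on either side, and as having a promoter peak if a peak touched the stretch between 2000 bp before and 1000 bp after any of its annotated starts. Chromatin immunoprecipitation and sequencing (ChIP-seq) of YAP and TEAD was performed in 19 samples of whole liver from C57BL/6 mice, and the authors merged the replicates into 6 peak lists. All mice carried ROSA26-rtTA-IRES-EGFP, an allele for the doxycycline-responsive activator rtTA, and all received doxycycline food. Mice without a YAP transgene (WT) received it for 7 days, and tetYAP mice, whose transgene is an activated form of YAP, received it for 3 days (3 d) or 7 days (7 d). According to the study's methods, rtTA depended on a Cre recombinase driven by the albumin promoter, so that induction was directed to hepatocytes, whereas the chromatin came from all cells of the liver. The study's methods name the TEAD antibody as anti-TEAD4 and state that it also binds TEAD1 and TEAD3, so the TEAD lists can hold sites of several family members. Tissue for YAP was crosslinked with DSG as well as formaldehyde whereas tissue for TEAD had formaldehyde alone. The tissue label could not be checked against marker genes, because peak lists hold no expression, and a change in the share of hepatocytes cannot be told apart from a change in binding per cell.

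Coagulation is a chain of circulating protease precursors, each cut by an activated protease before it, that ends when thrombin converts fibrinogen to fibrin, and fibrinolysis dissolves the clot again. Complement is a related chain of plasma proteins in which recognition of a surface leads to convertases that cleave C3 and C5 and to a pore built from the terminal components. Hepatocytes express many of these genes at high levels as part of their secretory programme. YAP is a coactivator without a DNA-binding domain of its own, and TEAD proteins are the factors through which it reaches DNA.

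The YAP summits near these genes and the TEAD summits at promoters bound already in WT livers carry the results that follow, so the sequence around them is shown here. Each is read from the mm9 genome 5′ to 3′ on the strand of the gene, within 50 bp of the summit and outside untranslated regions, and capitals mark GGAATG, the core of the TEAD motif, or GTTAAT, a site of the hepatocyte factor HNF1, on either strand. The first 4 lie at the YAP summits at 7 d of Klkb1 (chr8:46367124-46367224), Masp1 (chr16:23523799-23523899), Cfi (chr3:129539444-129539544) and Cfb (chr17:34999494-34999548). The next lies at the TEAD summit beside the YAP summit of Masp1 (chr16:23523700-23523800) and was added after the values were seen. The last 3 lie at promoter TEAD summits of Fga (chr3:82829775-82829875), C9 (chr15:6395220-6395320) and C4bp (chr1:132558212-132558312), taken from the 7 d list.
Klkb1, YAP summit: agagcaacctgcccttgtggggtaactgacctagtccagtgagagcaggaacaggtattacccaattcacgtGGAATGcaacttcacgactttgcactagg
Masp1, YAP summit: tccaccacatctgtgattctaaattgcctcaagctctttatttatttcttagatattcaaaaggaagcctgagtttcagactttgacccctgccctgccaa
Cfi, YAP summit: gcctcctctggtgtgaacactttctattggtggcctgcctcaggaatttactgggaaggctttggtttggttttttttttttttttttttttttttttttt
Cfb, YAP summit: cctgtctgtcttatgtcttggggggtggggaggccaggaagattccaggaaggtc
Masp1, TEAD summit: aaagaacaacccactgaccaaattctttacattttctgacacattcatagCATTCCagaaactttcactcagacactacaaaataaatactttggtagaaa
Fga, TEAD summit: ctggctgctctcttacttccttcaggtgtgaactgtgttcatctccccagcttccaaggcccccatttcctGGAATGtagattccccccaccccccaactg
C9, TEAD summit: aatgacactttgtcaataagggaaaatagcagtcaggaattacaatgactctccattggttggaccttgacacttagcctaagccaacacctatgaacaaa
C4bp, TEAD summit: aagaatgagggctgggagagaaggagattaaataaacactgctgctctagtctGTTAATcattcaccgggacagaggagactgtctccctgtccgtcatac
The TEAD core stood at the YAP summit of Klkb1, at the TEAD summit of Masp1 and at the TEAD summit of Fga. It was not among these letters at the YAP summits of Masp1, Cfi and Cfb or at the promoter summits of C9 and C4bp. In the wider window of 200 bp used for the motif counts it was also present at the promoter TEAD summits of C9, C4bp and C1ra, and at neither summit of Cfi or Cfb.

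Binding of TEAD to the coagulation and complement genes was widespread after induction, whereas YAP was called at few of them. In the TEAD list of WT livers, 14 of the 36 genes (38.9%) had a peak, compared with 20.1% of the 22331 other protein-coding genes. At 3 d the number was 35 (97.2%, against 58.8% of other genes), and at 7 d it was 33 (91.7%, against 59.6%). C8g, a subunit of the terminal complement pore, was the gene without a peak in any of the 6 lists.

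Promoters followed the same order of lists. A promoter TEAD peak was present at 6 of 36 genes (16.7%) in WT livers, compared with 8.68% of other genes. It was present at 29 (80.6%, against 38.8%) at 3 d and at 27 (75.0%, against 37.5%) at 7 d. The share was above that of other genes in each TEAD list, for promoters and for the wider window, and no test was run on these shares because the genes are a chosen list and each condition is 1 merged list.

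YAP was not called near any of the 36 genes in WT livers (0.116% of other genes with a peak, 0.0358% with a promoter peak) or at 3 d (0.161% and 0.0716%). The YAP lists of these livers held 156 and 110 peaks in all, so very few genes of any kind could have had a peak there. At 7 d, when the YAP list held 1478 peaks, 5 of 36 genes (13.9%) had a YAP peak, compared with 4.78% of other genes. A promoter YAP peak was found at 2 (5.56%, against 1.03%). The 5 genes rested on 4 peaks, since Cfb and C2 share 1.

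**Figure D1:**
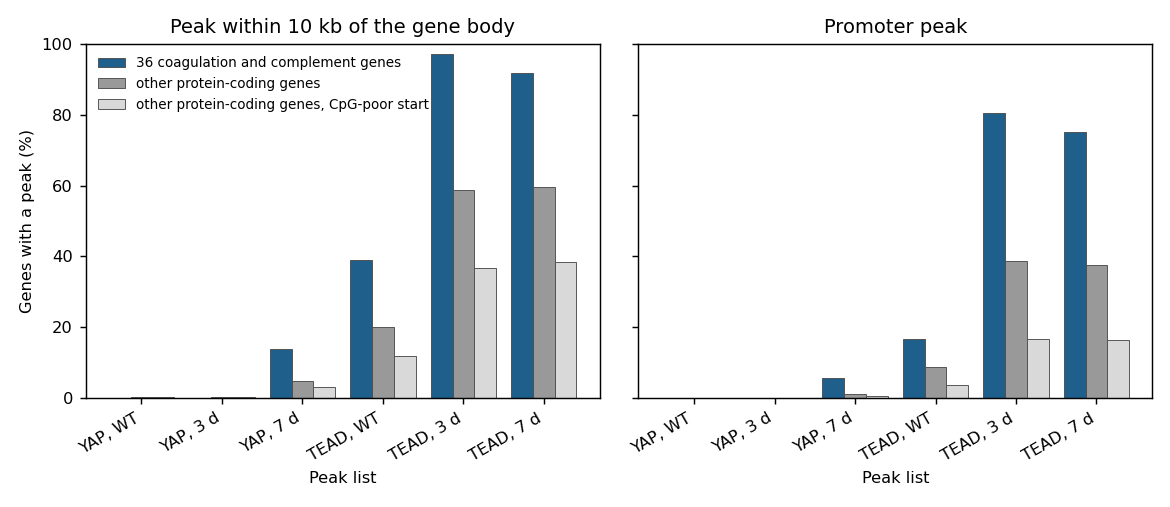
Percent of genes (vertical axis) with a peak within 10 kb of the gene body (left) or with a promoter peak (right) in each of the 6 peak lists (horizontal axis), for the 36 coagulation and complement genes, for other protein-coding genes and for other genes whose start is CpG-poor. For TEAD the 36 genes stand highest in every list, with 38.9%, 97.2% and 91.7% for the wider window; each bar is 1 merged list and carries no error.

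The starts of these genes differ in base composition from those of most genes. Of the 36, 35 (97.2%) had a CpG-poor start, with an observed to expected CpG ratio under 0.5 within 500 bp of the first annotated start, compared with 46.6% of other genes. C2 was the exception, with a ratio of 0.789. The median ratio was 0.217 for the 36 genes and 0.550 for other genes. Among the 10401 other genes with a CpG-poor start, a promoter TEAD peak was found for 3.76% in the WT list, 16.5% at 3 d and 16.4% at 7 d, lower than among other genes as a whole. The distance between the 36 genes and the rest was thus wider when starts of similar composition were compared, although that set includes genes expressed in any tissue. The window was also longer for the 36 genes, with a median of 43.1 kb against 35.4 kb. Among the 17177 other genes whose window lay within the range of the members', 66.4% had a TEAD peak at 7 d, which remained below 91.7%.

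TEAD peaks were dense around these genes but not unusually strong. Within their windows lay 19 distinct TEAD peaks in WT livers and 130 at each of 3 d and 7 d. That was 10.1, 69.1 and 69.1 peaks per Mb of window, compared with 3.47, 22.7 and 23.7 per Mb around other protein-coding genes. The start nearest to the summit belonged to a member for 18 of the 19 peaks in WT livers and for 113 of 130 in each of the later lists. The median fold enrichment, the ratio of the pileup at the summit to the local background, was 5.14 in the WT list, 5.58 at 3 d and 7.30 at 7 d. Around other genes it was 5.05, 5.42 and 7.30, so the peaks near members were close in strength to those elsewhere. Of the 130 peaks at 7 d, 12 (9.23%) ranked among the strongest 10% of the list by −log10 p-value, compared with 9.44% around other genes.

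The promoter peaks lay close to the start. The summit of the strongest promoter TEAD peak lay within 250 bp of a start for 6 of 6 genes in the WT list, 23 of 29 (79.3%) in the 3 d list and 22 of 27 (81.5%) in the 7 d list. For other genes with a promoter peak these shares were 54.5%, 58.4% and 55.3%. The 95% interval at 7 d, 63.3% to 91.8%, covers counting error over genes only. The median summit lay at −88 bp at 3 d and at −58 bp at 7 d, where negative values are upstream. The strongest promoter peak of each member had a median fold enrichment of 9.66 at 7 d, against 7.78 for other genes, and a median of 6.43 against 6.07 at 3 d.

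**Figure D2:**
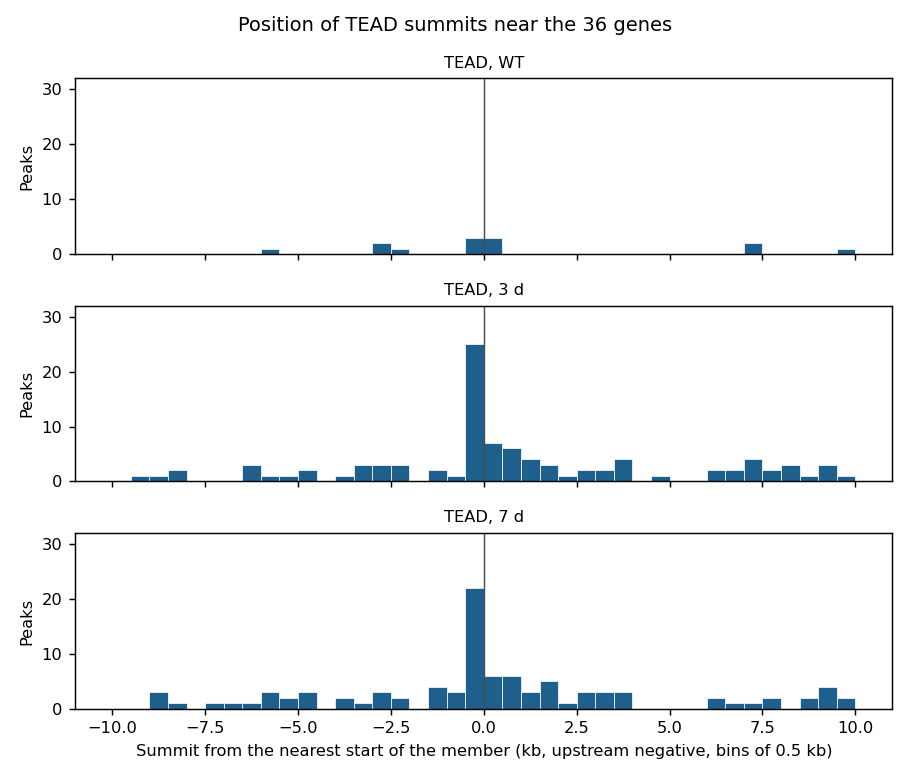
Number of TEAD peaks near the 36 genes (vertical axis) by the position of the summit relative to the nearest annotated start of a member (horizontal axis, kb, upstream negative, bins of 0.5 kb), for the WT, 3 d and 7 d lists; peaks farther than 10 kb from a start are not drawn. The tallest bin at 3 d and 7 d holds summits 0 to 0.5 kb upstream of a start, with 25 and 22 peaks.

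Fibrinogen, the precursor of fibrin, is encoded by the neighbouring genes Fga, Fgb and Fgg, and all had TEAD peaks in WT livers. Fga, the alpha chain, was the member of the fibrin group with the strongest TEAD peak at 7 d and had a promoter TEAD peak in all 3 lists, with a fold enrichment of 5.45 in the WT list, 15.3 at 3 d and 24.7 at 7 d. The 7 d summit lay 250 bp upstream of the start, in the sequence shown above, and the peak ranked within the strongest 6.27% of its list. Fgb, the beta chain, gained a promoter peak after induction, 8.90-fold at 3 d and 14.1-fold at 7 d. Fgg, the gamma chain, had promoter peaks of 9.03-fold and 11.8-fold at the same times and a further TEAD site 2779 bp upstream that was called in WT livers as well (4.65-fold in WT, 16.7-fold at 7 d). Peaks between these genes lie in the windows of several of them and were counted for each. F2, which encodes prothrombin, had its strongest TEAD peak in an intron, 7.24-fold at 3 d and 6.83-fold at 7 d, and no TEAD peak in WT livers. The promoter peak of F2 was 5.25-fold at 3 d and 6.83-fold at 7 d. F13b, the carrier subunit of the factor that crosslinks fibrin, had a promoter peak of 5.75-fold at 3 d and 8.95-fold at 7 d and none in WT livers. No gene of this group had a YAP peak.

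**Figure D3:**
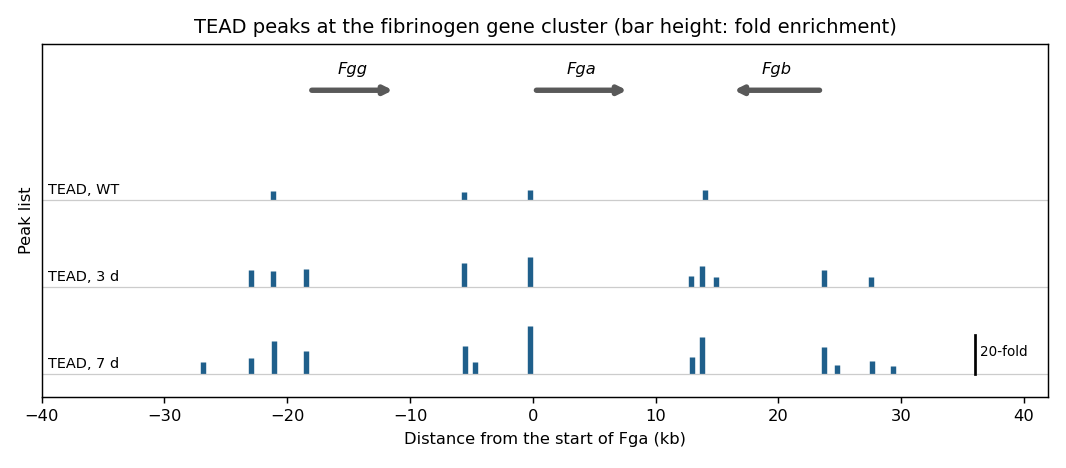
TEAD peaks at the fibrinogen gene cluster, drawn by the distance of the summit from the start of Fga (horizontal axis, kb), with 1 row for each list and the fold enrichment as bar height (scale bar 20-fold); arrows show the genes and their direction. The bar at the start of Fga is the tallest of the cluster in the 3 d and 7 d lists, at 15.3-fold and 24.7-fold.

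Among the 9 coagulation factors upstream of thrombin, 2 had a TEAD peak in the WT list, compared with 20.1% of other genes. At 3 d the number was 9 (against 58.8%) and at 7 d it was 7 (against 59.6%). None of the 9 had a promoter TEAD peak in WT livers, against 8.68%. Klkb1, which encodes plasma prekallikrein, a protease of the contact pathway, had the strongest TEAD peak of this group and its YAP peak. The site lies in an intron of Klkb1, 13039 bp downstream of the nearest start by the YAP summit (YAP peak chr8:46366965-46367230). TEAD enrichment there was 4.55-fold in WT livers, 13.2-fold at 3 d and 17.3-fold at 7 d, and YAP enrichment at 7 d was 4.88-fold. The YAP and TEAD summits at 7 d were 23 bp apart, and the TEAD core shown in capitals lay 1 bp from the TEAD summit. Kng1, the kininogen that serves as cofactor of the contact pathway, had its strongest peak at an annotated start, 11.5-fold at 3 d and 17.1-fold at 7 d. F11, the neighbour of Klkb1 and the next protease of the pathway, had its strongest peak 5193 bp upstream of its start at 7 d, with a fold enrichment of 9.36 at 3 d and 15.6 at 7 d. F12, the protease that starts the pathway, had a single peak 2617 bp upstream, 8.01-fold at 7 d, and no promoter peak.

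The remaining factors of this group are vitamin K-dependent proteases and large cofactors. F5, a cofactor for generation of thrombin, had a promoter peak of 4.92-fold at 3 d and 9.66-fold at 7 d. F9, the protease partner of F8, had a peak in an intron, 8.70-fold at 3 d and 5.42-fold at 7 d. Its promoter peak was called at 7 d alone, and at 4.95-fold it ranked at 91.6% of its list. F7, the partner of tissue factor, had a promoter peak at 3 d alone, and at 3.16-fold it ranked at 99.0% of its list, near the weakest peaks called. F8, the cofactor of F9 and a gene also known for expression in endothelial cells, was the gene with a TEAD peak in WT livers and none at 7 d. This intron peak was 4.39-fold in WT livers and 6.57-fold at 3 d. F10, the protease that activates prothrombin, had peaks in its window whose nearest start belonged to the neighbouring gene Proz, up to 9.43-fold at 7 d, and no promoter peak.

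None of the 5 anticoagulant and fibrinolysis genes had a TEAD peak in WT livers, compared with 20.1% of other genes. All 5 had a promoter TEAD peak at 3 d, compared with 38.8%. Plg, which encodes plasminogen, the precursor of the protease that dissolves fibrin, had the strongest TEAD peak of this group. It lay in an intron, 37064 bp downstream of the start, and was 11.5-fold at 3 d and 25.0-fold at 7 d. The promoter peak of Plg was far weaker, 4.76-fold at 3 d and 6.36-fold at 7 d. Vtn, which encodes vitronectin, a plasma adhesion protein that also restrains the complement pore, had its peak at the start itself, 13.5-fold at 3 d and 22.2-fold at 7 d. Proc, the precursor of the anticoagulant protease that inactivates F5 and F8, had its strongest peak at 8.04-fold at 3 d and 10.4-fold at 7 d. Cpb2, a carboxypeptidase that slows fibrinolysis, had a promoter peak of 6.76-fold at 3 d and 6.58-fold at 7 d. Pros1, the cofactor of activated protein C, had a promoter peak at 3 d alone, 3.96-fold.

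Complement genes made up most of the members bound in WT livers. Of the 17 complement genes, 9 had a TEAD peak and 5 a promoter TEAD peak in WT livers, and 4 had a YAP peak at 7 d. Of the 19 coagulation and fibrinolysis genes these numbers were 5, 1 and 1. Among other protein-coding genes the shares were 20.1%, 8.68% and 4.78%. The complement genes with a YAP peak include Cfb and C2, which share 1 peak. After induction a promoter TEAD peak was present in both groups at most genes. At 3 d it was found for 14 of 17 and 15 of 19 genes, compared with 38.8% of other genes.

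**Figure D4:**
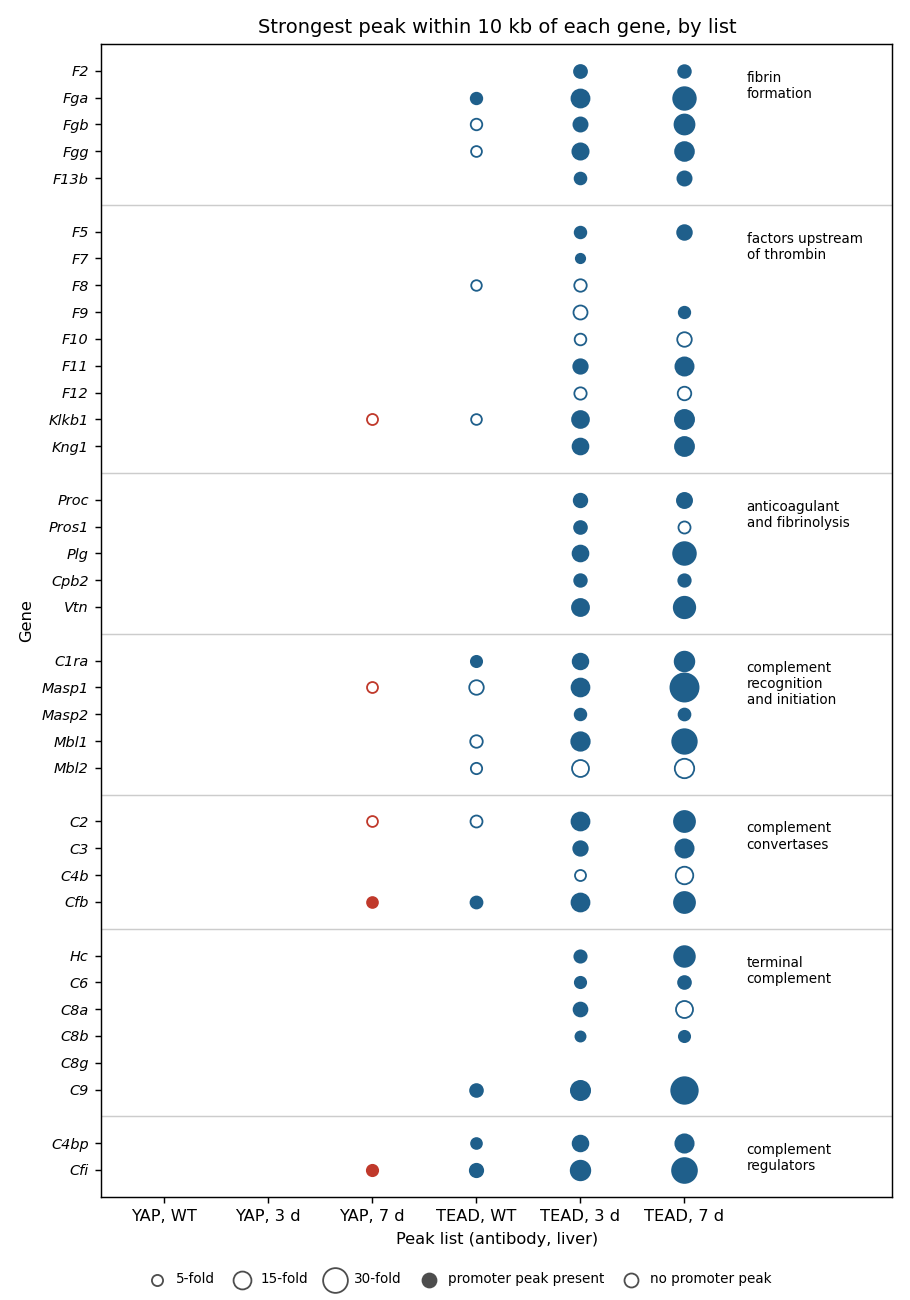
The strongest peak within 10 kb of each of the 36 genes (vertical axis, grouped by role) in each of the 6 lists (horizontal axis), with YAP in red and TEAD in blue. Circle area grows with the fold enrichment of the strongest peak, a filled circle marks a gene with a promoter peak in that list, and no circle means that no peak was called; most genes gain TEAD circles at 3 d, and 5 have a YAP circle at 7 d.

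The recognition and initiation genes had a TEAD peak in WT livers at 4 of 5 loci, compared with 20.1% of other genes. At most of these loci it lay away from the promoter. Masp1, which encodes a protease of the lectin pathway, had the strongest TEAD peak of all 36 genes. It lay 3074 bp upstream of the start (chr16:23523457-23524051), was not called in WT livers, and rose from 9.36-fold at 3 d to 39.1-fold at 7 d, where it ranked within the strongest 1.63% of its list. A YAP peak at 7 d overlapped it (chr16:23523669-23523918), with an enrichment of 4.80-fold. The YAP and TEAD summits were 99 bp apart, and the TEAD core was 2 bp from the TEAD summit. In WT livers Masp1 had 4 TEAD peaks, the strongest of them (9.44-fold) in an intron near the 3′ end of the gene. That site was 13.3-fold at 3 d and 9.19-fold at 7 d. C1ra, the protease that starts the classical pathway, had a promoter TEAD peak in all 3 lists, 5.14-fold in WT livers, 11.2-fold at 3 d and 18.4-fold at 7 d. Its sequence is not shown, because the summit lies in a 5′ untranslated region.

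Mbl1 and Mbl2 encode the mannose-binding lectins that recognise microbial sugars. Mbl1 had a TEAD site 9536 bp downstream of its start, 6.65-fold in WT livers, 16.1-fold at 3 d and 29.5-fold at 7 d. Mbl2 had a site 10191 bp upstream of its start, 5.18-fold in WT livers, 13.3-fold at 3 d and 17.9-fold at 7 d, and no promoter peak in any list. Masp2, the other protease of this pathway, had no peak in WT livers, and its promoter peak was 4.15-fold at 3 d and 5.42-fold at 7 d.

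Among the convertase genes, Cfb and C2 are neighbours with a TEAD and YAP site where the end of C2 meets the start of Cfb. Cfb encodes factor B, the catalytic part of the alternative pathway convertase, and C2 encodes its counterpart in the classical pathway. TEAD enrichment at this promoter of Cfb was 6.00-fold in WT livers, 15.2-fold at 3 d and 21.2-fold at 7 d. The YAP peak (chr17:34999385-34999666) was 4.69-fold, with its summit 81 bp upstream of a start of Cfb and 15 bp from the TEAD summit. No TEAD core was present anywhere in the YAP peak or in the TEAD peak at 7 d, and a match to CAAAGTCCA, a motif of the hepatocyte factor HNF4A, lay 81 bp from the YAP summit. C2 had promoter TEAD peaks of its own, of up to 7.06-fold at 3 d and 19.3-fold at 7 d. C3, the protein on which all pathways converge, had no TEAD peak in WT livers and 3 promoter peaks at 7 d, of 7.72-fold, 8.83-fold and 9.13-fold. C4b, a precursor of the classical convertase, had peaks downstream of the gene, 4.86-fold at 3 d and 14.4-fold at 7 d, and no promoter peak.

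The terminal genes encode the pore. C9, which polymerises to form its wall, had 2 TEAD peaks in WT livers. The stronger lay 2928 bp upstream of the start by its 7 d summit and was 7.05-fold in WT livers, 17.6-fold at 3 d and 34.6-fold at 7 d, second to Masp1 among all 36 genes. The promoter peak of C9 was 5.05-fold, 9.69-fold and 19.1-fold in the same lists. Hc, which encodes complement C5, gained a peak at an annotated start inside the gene, 6.43-fold at 3 d and 20.5-fold at 7 d. C6 had a promoter peak of 5.25-fold at 3 d and 7.07-fold at 7 d. C8a had a weak promoter peak at 3 d alone (4.27-fold) and intron peaks of up to 13.4-fold at 7 d, and C8b had a promoter peak of 3.49-fold at 3 d and 5.16-fold at 7 d.

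Both complement regulators, C4bp and Cfi, had promoter TEAD peaks in all 3 lists. Cfi encodes factor I, the protease that degrades C3b and C4b. Its promoter TEAD peak was 7.84-fold in WT livers, 18.2-fold at 3 d and 30.2-fold at 7 d, the strongest promoter peak among the 36 genes at 7 d. The YAP peak at 7 d (chr3:129539346-129539632) was 5.24-fold, with its summit 161 bp upstream of the start and 9 bp from the TEAD summit. The YAP peak held no match to the TEAD core, and the wider TEAD peak held 2, the nearer 197 bp from the TEAD summit. C4bp, the cofactor of factor I, had a TEAD peak at its start of 3.99-fold in WT livers, 9.69-fold at 3 d and 15.8-fold at 7 d. The HNF1 site in capitals above lies beside that summit, and a TEAD core lies within 100 bp of it.

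The YAP peaks near these genes were modest. Their fold enrichment ran from 4.69 to 5.24, compared with a median of 5.72 around other genes, and they stood between 55.1% and 86.5% of the way down the YAP list when ranked by −log10 p-value. All 4 overlapped a TEAD peak at 7 d, and 3 overlapped a TEAD peak of WT livers, with the site of Masp1 as the exception. Of the 1013 YAP peaks around other genes, 95.9% overlapped a TEAD peak at 7 d and 59.0% one of WT livers. In the other direction, 4 of the 130 TEAD peaks near members at 7 d overlapped a YAP peak (3.08%, interval 1.20% to 7.64%), compared with 3.25% around other genes. Strong TEAD peaks of C9, Mbl1, Plg and Fga had no YAP peak. When YAP peaks under 5-fold were left out, 1 of the 36 genes had a YAP peak, compared with 3.92% of other genes, and when gene bodies alone were counted, 3 did, compared with 2.92%.

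The TEAD peaks near members were joined across the 3 lists into 162 sites to follow each position. Of these, 17 were present in every TEAD list, 2 in the WT and 3 d lists, 79 in the 3 d and 7 d lists, 30 in the 3 d list alone and 34 in the 7 d list alone. No site was called in WT livers alone, and the 2 that were not called again at 7 d lie in introns of Masp1 and F8. Of the 19 WT peaks near members, 19 overlapped a 3 d peak and 17 a 7 d peak, compared with 98.4% and 96.2% around other genes. The share of TEAD peaks near members that overlapped a WT peak was 14.6% at 3 d (19 of 130, interval 9.56% to 21.7%) and 13.1% at 7 d (17 of 130, interval 8.33% to 19.9%). Around other genes it was 15.3% and 14.4%, within these intervals. The shares near members were thus close to those around other genes. The intervals cover counting error over peaks only, and the difference was not tested.

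At the 17 sites called throughout, the median fold enrichment was 5.18 in the WT list, 13.2 at 3 d and 18.4 at 7 d. It was higher at 3 d than in WT livers at 17 of 17 sites and higher at 7 d than at 3 d at 16 of 17, with the intron site near the 3′ end of Masp1 as the exception. Of 4162 such WT peaks around other genes, 98.9% and 85.8% rose in the same steps. Depth and the fragment length used in peak calling (400 bp in WT livers, 207 bp at 3 d, 206 bp at 7 d) differed between the lists. Their part in these rises was not tested. Within their lists the 17 sites stood at a median of the strongest 47.0% in the WT list, 8.72% at 3 d and 10.9% at 7 d. This position was better at 3 d than in WT livers at 16 of 17 sites. However, it is a percent of list length, and the lists held 5695 peaks in WT livers and 36446 at 3 d. A longer list with added weaker peaks can move every such site up, so this step is not a measure of strength. Between 3 d and 7 d (38984 peaks) the position was better at 10 of 17 sites. That is fewer than the 16 with a higher fold enrichment. The 79 sites called at 3 d and 7 d had medians of 5.75-fold and 7.78-fold. The median of all TEAD peaks around other genes was likewise higher at 7 d, 7.30-fold against 5.42-fold at 3 d. The median position of the 79 sites in the list was nearly the same, 44.3% at 3 d and 44.0% at 7 d. Sites called at a single time after induction were weaker, with medians of 4.31-fold at 3 d and 5.65-fold at 7 d.

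**Figure D5:**
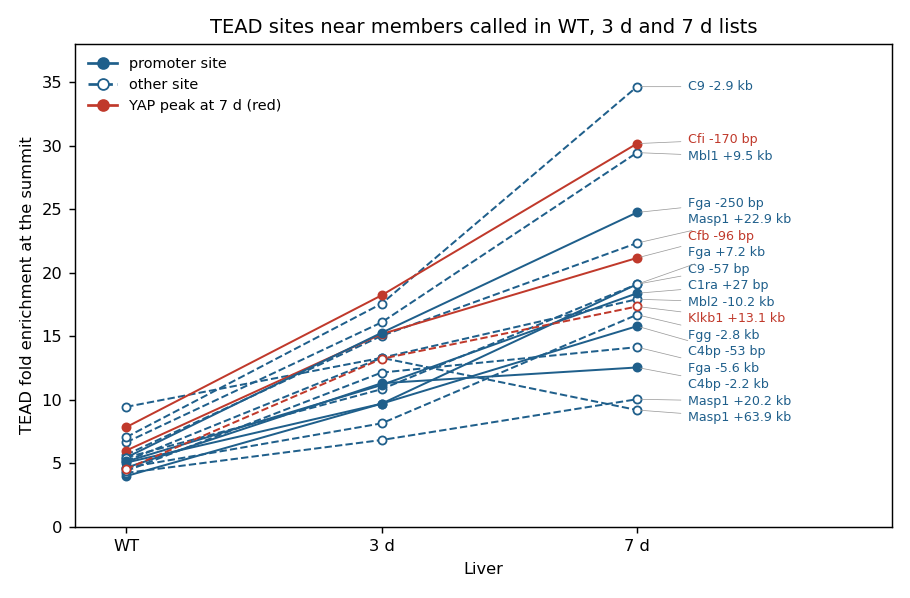
TEAD fold enrichment at the summit (vertical axis) of the 17 sites near members that were called in all 3 TEAD lists (horizontal axis), with each line 1 site labelled by its member and its distance from that gene's nearest annotated start. Filled circles are promoter sites and red lines are sites with a YAP peak at 7 d. All 17 lines rise from WT to 3 d, and the site near the 3′ end of Masp1 falls from 13.3-fold to 9.19-fold at 7 d. The lists differ in depth and in the fragment length used in peak calling.

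Most members gained their TEAD peaks after induction. Of the 36 genes, 21 had a TEAD peak at 3 d and none in WT livers, compared with 38.7% of other genes, and 20 had one at 7 d and none in WT livers, compared with 39.6%. For promoter peaks the numbers were 23 at 3 d, against 30.2% of other genes, and 21 at 7 d, against 28.9%. With lists limited to peaks of at least 5-fold, 22 genes gained a TEAD peak at 3 d and 23 at 7 d, compared with 36.6% and 45.0% of other genes. With a −log10 p-value of at least 10 the numbers were 19 and 20, compared with 37.3% and 38.2%. Among the strongest 5695 TEAD peaks at each time, the length of the WT list, 17 of the 36 genes had a peak at 3 d and 17 at 7 d, compared with 19.7% and 18.1% of other genes, and 8 and 10 had a promoter peak, compared with 7.70% and 5.92%. Of the 36, 4 and 5 then had a peak and none in WT livers, compared with 4.78% and 5.37%. Depth and the fragment length used in peak calling (400 bp in WT livers, 207 bp at 3 d, 206 bp at 7 d) differed between these lists as well, and their part in the gains was not tested.

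Motifs were counted within 200 bp centred on each TEAD summit, on both strands. The TEAD core GGAATG was present at 8 of 19 peaks near members in WT livers (42.1%), against 48.6% of all peaks of that list. At 3 d it was present at 34 of 130 (26.2%, against 30.4%), and at 7 d at 40 of 130 (30.8%, against 35.2%). The share in the whole list lay within the members' interval each time. The AP-1 motif TGANTCA was found at 6.15% of the peaks near members at 7 d, against 8.67% of the list, and TTGCGCAA, a motif of the C/EBP factors, at none, against 0.193%. The HNF4A motif was found at 6 of 130 peaks at 7 d (4.62%), against 1.69% of the list, and the HNF1 site GTTAAT at 12.3%, against 8.07%. At 3 d these shares were 4.62%, against 1.66%, and 16.2%, against 7.61%. In WT livers they were 5.26%, against 1.46%, and 15.8%, against 7.06%, of 19 peaks. The list share lay below the members' interval for HNF4A at 3 d and 7 d and for HNF1 at 3 d, and within it otherwise. With 100 bp in place of 200 bp at 7 d, the shares near members were 0.769% for HNF4A, against 0.942% of the list, and 6.92% for HNF1, against 4.02%. Both list shares then lay within the intervals.

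The same pathways include genes beyond the 36, among them inhibitors, receptors and enzymes of other cells. Of 44 such genes, 13 had a TEAD peak in the WT list, 29 in the 3 d list and 34 in the 7 d list (29.5%, 65.9% and 77.3%), compared with 20.1%, 58.8% and 59.6% of protein-coding genes outside the 36, and 7, 23 and 24 had a promoter TEAD peak, compared with 8.68%, 38.8% and 37.5%. The 44 are themselves part of that comparison set. A YAP peak at 7 d was found near 5 of them (11.4%, against 4.78%), F3, Kng2, Vkorc1, Serping1 and Clu, and none had a YAP peak in WT livers or at 3 d. Vkorc1, the enzyme that recycles vitamin K for the synthesis of clotting factors, had a promoter TEAD peak of 13.3-fold in WT livers, 38.3-fold at 3 d and 43.1-fold at 7 d, above every site near the 36 genes. Its YAP peak was 7.20-fold. Clu, which encodes clusterin, an inhibitor of the complement pore, had a promoter TEAD peak of 8.97-fold, 22.7-fold and 30.9-fold in the same order and a YAP peak of 5.42-fold. Kng2, a second kininogen gene, had a promoter TEAD peak of 4.65-fold, 17.7-fold and 24.3-fold and a YAP peak of 5.93-fold. F3, which encodes tissue factor, had a YAP peak of 6.36-fold and Serping1, which encodes the C1 inhibitor, one of 5.08-fold, both away from the promoter. Hrg, Cd46 and C1rb also had a promoter TEAD peak in all 3 lists, and that of C1rb is the peak of C1ra. For Hrg it was not the same site throughout. The WT site was still called at 7 d (16.0-fold, summit 1313 bp downstream of a start) but did not touch the promoter stretch. The promoter peak of Hrg at 7 d had its summit 32 bp downstream of a start and overlapped no WT peak.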

How the data were processed

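YAP and TEAD ChIP-seq peak lists of 6 groups were used, with groups taken from the sample labels (3 replicates each, 4 for TEAD at 7 d). The authors aligned reads to mm9 with BWA 0.6.2, merged replicates, removed duplicates and called peaks with MACS2 2.0.9. Per the file headers the p-value cutoff was 1e-05, the control was 1 library of 167176362 tags for all lists, and merged libraries held 34260362 to 55032002 tags. The deposited pileup is a signal (fragments over the summit), the deposited fold enrichment is the ratio of pileup to local background, and the deposited −log10 p-value and −log10 q-value come from the caller; p-values ranked peaks here. The lists also give deposited lengths and summits.

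Peaks and genes (GENCODE, NCBIM37) were intersected in Python 3.11.15 with numpy 2.4.6 and pysam 0.24.0, requiring 1 bp of overlap; counting was tested on simulated data. Chromosome lengths were checked against the assembly. Offsets are from summit to nearest annotated start of the gene. Intervals are 95% Wilson intervals and cover counting error only. With 1 merged list per group, no p-value was computed. Members, gene lists and counts were chosen with earlier results of these data known. Values are given for members with a YAP peak at 7 d, those with a promoter TEAD peak in WT livers and the strongest of each role at 7 d, and the remaining members are described in short. Of the other pathway genes, those with a YAP peak at 7 d or a promoter TEAD peak in all 3 TEAD lists are named, except 1 gene that is not reported here. Alternatives covered peak strength, list length, peak width, window, promoter, overlap and motif window.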

Additional observations from a re-analysis of the deposited data

How the results depend on the processing

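Of 135 recomputed values of the member counts and shares, 120 stayed within the set limits and 15 moved. With YAP peaks of at least 5-fold, 1 member had a YAP peak at 7 d and 1 a YAP promoter peak, and the share of TEAD peaks near members at a YAP peak was 0.862%. With gene bodies alone, 3 members had a YAP peak. With TEAD lists cut to the length of the WT list, 17 members had a TEAD peak at 3 d and 17 at 7 d, 8 and 10 a promoter peak, and 4 and 5 a peak and none in WT livers. In the same lists, 72.2% of peaks at 3 d and 56.5% at 7 d overlapped a WT peak and 17.4% at 7 d a YAP peak. The cut lists hold fewer peaks and only the strongest ones, and what moved these values was not tested. With 100 bp around the summit, 0.769% held the HNF4A motif and 6.92% the HNF1 site. Of 24 recomputed shares of other genes, 15 moved. No paired analysis was possible because replicates were merged before peak calling, which also kept single replicates from being left out. The YAP lists of WT livers and at 3 d hold 156 and 110 peaks, from merged libraries of 54661175 and 36221830 tags. The list at 7 d holds 1478 peaks, from 34260362 tags. The part of depth in these counts was not tested.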
